A study of Rattus norvegicus with 6 samples.

Results

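Integrins are the transmembrane receptors through which cells hold on to the extracellular matrix, and laminins are the cross-shaped glycoproteins that organise the basement membrane on which the vestibular sensory epithelium rests. The genes examined here were the protein-coding rows of the count table whose symbols name an integrin α or β chain, the integrin-like protein Itgbl1, or a laminin α, β or γ chain. The rule used names alone and took 35 genes, 25 of integrins and 10 of laminins, out of 22250 protein-coding genes and 32883 genes in the table. An integrin works as a dimer of an α and a β chain, and a laminin as a trimer of an α, a β and a γ chain. In epithelia the dimer α6β4 anchors the basal cells through hemidesmosomes, while α3β1, α6β1 and α7β1 are the other common laminin receptors.

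RNA was sequenced from Long-Evans rats, of which the STREP animals received 500 mg/kg streptomycin subcutaneously every day for 6 weeks from postnatal day 21 and the Control animals received PBS, the solvent. The aminoglycoside streptomycin is toxic to hair cells (HCs). Each group held 3 animals, 2 males and 1 female, and each library came from the 2 utricles and 6 cristae of 1 animal, dissected at the end of exposure. The libraries, made with the SMART-seq2 chemistry from oligo-dT primed cDNA, carried between 29333584 and 59906048 counts, and all 3 Control libraries were deeper than all 3 STREP libraries. HC marker genes were present in every library, with a summed normalised count of 73611 to 75658 in Control and 60852 to 71648 in STREP animals, without overlap. Of the 10 HC markers, 8 had negative log2 fold changes, 3 had an adjusted p under 0.05 with a lower level, and 1, the calcium buffer gene Pvalb, was called lower. In such whole-tissue RNA, fewer cells of a type and less RNA per cell cannot be told apart.

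None of the 35 genes passed the test for a change under streptomycin. DESeq2, with a call set at an adjusted p under 0.05 over all genes and a fold change above 1.5, called 0 of the 35, where it called 3.24% of the 16250 genes tested, 1.37% lower and 1.87% higher. The edgeR quasi-likelihood test also called 0, where it called 1.77% of all tested genes with a count filter and 1.58% without one. At an unadjusted p under 0.05, edgeR gave 7 of the 35, for which no share of all genes was taken here. DESeq2 gave 7 of the 35 (20.0%) at that level, against 12.2% of all genes. The 6 of these with a lower level in STREP animals were Lama1, Lamb1, Lamb3, Itga6, Itga7 and Itga9, and the 1 with a higher level was Itga8. All 35 had a mean of at least 10 normalised counts, so each was tested, and 26 had a mean of at least 100.

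The 3 STREP animals lay below all 3 Control animals for 6 of the 35 genes (17.1%), Lama1, Lamb1, Lamb3, Itga5, Itga6 and Itga9, where 8.63% of all tested genes did so. They lay above all 3 Control animals for 0 of the 35, where 9.12% of all tested genes did so. For 11 genes (31.4%) the 95% interval of the fold change stayed within 1.5-fold in both directions, against 37.5% of all tested genes. Those 11 were Itga3, Itgav, Itgb1, Itgb4, Itgb6, Itgb8, Itgbl1, Lama4, Lama5, Lamb2 and Lamc1.

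The median log2 fold change was -0.09 over the integrin genes and -0.05 over the laminin genes, beside 0.0057 over all genes whose mean was 10 or more. The integrin median was -0.36 without STREP replicate 2, 0.11 without STREP replicate 3 and 0.10 among males alone, so its sign rested on single animals. The laminin median ran from -0.22, without STREP replicate 2, to 0.026 when 1 animal was left out. Within the integrins, the 17 α chains had a median of -0.32, with 12 negative values, and the 7 β chains a median of 0.11.

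The laminin α1 chain, Lama1 (ENSRNOG00000017237), had the smallest adjusted p of the 35 genes. Lama1 is known as a chain of embryonic and specialised epithelial basement membranes. In Control animals, in the order of replicates 1 to 3, it had 253, 267 and 278 normalised counts, against 146, 79.9 and 166 in STREP animals. The Control animals lay close together, the STREP animals were all lower, and STREP replicate 2 was the lowest. The means were 266 ± 12.5 and 131 ± 45.2 (SD, n = 3), and DESeq2 estimated the log2 fold change as -1.03 ± 0.33 (SE, adjusted p = 0.0543 in DESeq2). Lama1 was called lower when STREP replicate 3 was left out (-1.24, adjusted p = 0.0287 in DESeq2) and under an adjusted p of 0.1. Without STREP replicate 2, the lowest animal, the change was -0.77 (adjusted p = 0.135 in DESeq2), and edgeR gave an adjusted p of 0.185 with all animals.

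The β chains of laminin gave different values. Lamb3, the β3 chain of the laminin that hemidesmosomes bind, had normalised counts of 13874, 8842 and 11665 in Control and 8826, 8672 and 5684 in STREP replicates 1 to 3. The groups met without overlap, since Control replicate 2 and STREP replicate 1 were almost equal, and the female STREP animal, replicate 3, was the lowest. The log2 fold change was -0.57 ± 0.21 (SE, adjusted p = 0.13 in DESeq2), and Lamb3 was called lower when Control replicate 2 was left out (-0.73, adjusted p = 0.0422 in DESeq2). It was -0.39 (adjusted p = 0.347 in DESeq2) without STREP replicate 3 and -0.41 (adjusted p = 0.542 in DESeq2) without Control replicate 1. With sex as covariate the change was -0.60 (adjusted p = 0.0608 in DESeq2) and was not called.

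Lamb1, the β1 chain found in most basement membranes, had 2596, 2727 and 2697 normalised counts in Control and 2512, 1727 and 1873 in STREP animals. STREP replicate 1 was just under the Control range, and the other two STREP animals were further below it. DESeq2 gave a log2 fold change of -0.39 ± 0.17 (SE, adjusted p = 0.275 in DESeq2). Without STREP replicate 1 it was -0.57 (adjusted p = 0.00793 in DESeq2), short of the 1.5-fold limit. Lamb2, the β2 chain typical of synaptic and neural basement membranes, had 15385 ± 1029 normalised counts in Control and 15841 ± 930.1 in STREP animals, a log2 fold change of 0.04 ± 0.12 (SE) whose interval stayed within 1.5-fold.

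The laminin γ1 chain gene Lamc1, shared by most laminins, had 2346 ± 398 normalised counts in Control and 2285 ± 392 in STREP animals (log2 fold change -0.04 ± 0.19, SE). Lamc3 had 177 ± 31.4 and 179 ± 72.3. Both overlapped between the groups. Among the other α chains, Lama5, the main epithelial chain of adult tissue, had 2034 ± 267 and 2219.9 ± 356 normalised counts. Lama4, the α4 chain of vessels and nerves, had 2739.8 ± 253 and 2616 ± 400.0, and Lama2, the chain of muscle and Schwann cell basement membranes, had 2383 ± 236 and 2066 ± 629. Each of these overlapped between the groups.

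**Figure D1:**
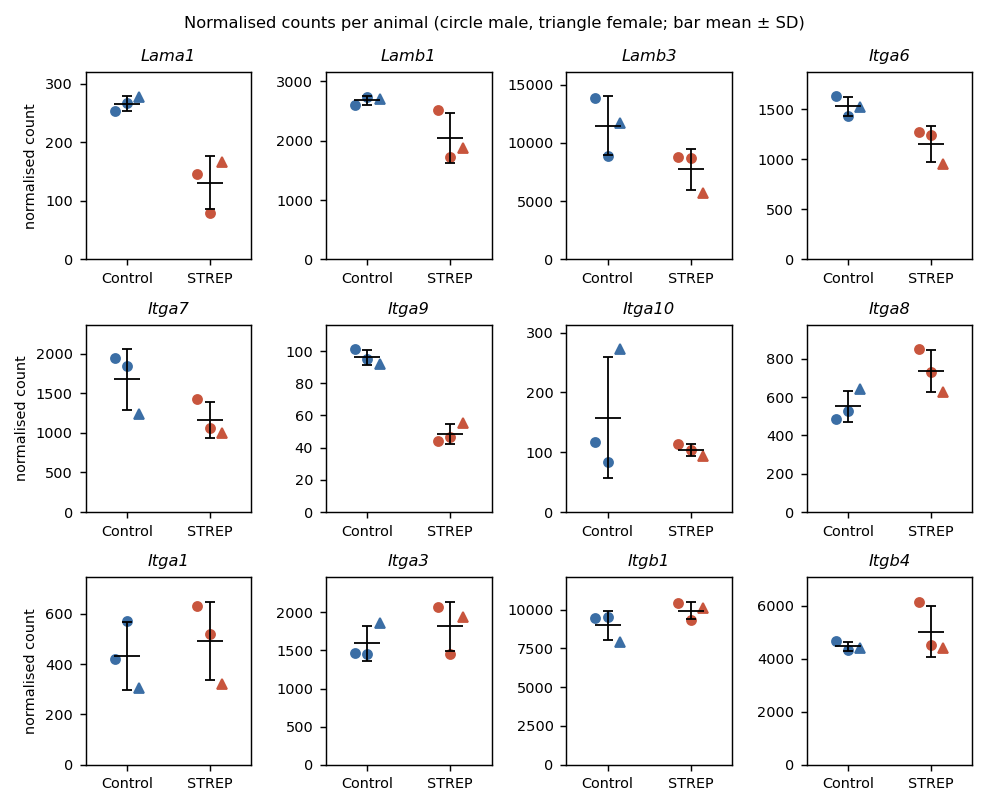
Normalised counts of 12 genes in each animal, Control in blue and STREP in red, with circles for males, triangles for females and bars at the mean ± SD of 3 animals. The 3 STREP animals lie below the 3 Control animals for Lama1, Lamb1, Lamb3, Itga6 and Itga9, and the groups overlap in the other panels.

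The α chains of the laminin-binding integrins did not share a direction. Itga6 had 1629, 1434 and 1521 normalised counts in Control and 1275, 1238 and 949.9 in STREP animals. All STREP animals were lower, and the female STREP animal was the lowest. Its log2 fold change was -0.40 ± 0.17 (SE, adjusted p = 0.244 in DESeq2), and it ran from -0.48 to -0.28 when 1 animal was left out.

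Itga7, a laminin receptor of muscle and Schwann cells, had 1948, 1838 and 1234 normalised counts in Control and 1425, 1060 and 998 in STREP animals. The female Control animal fell inside the STREP range, and the females were the lowest of their groups. Itga7 had a log2 fold change of -0.53 ± 0.22 (SE, adjusted p = 0.227 in DESeq2). With sex as covariate the change was -0.51 (adjusted p = 0.0796 in DESeq2) and was not called. Itga7 was called lower when that Control female, replicate 3, was left out (-0.71, adjusted p = 0.0384 in DESeq2). It was -0.41 (adjusted p = 0.623 in DESeq2) without Control replicate 1 and -0.43 (adjusted p = 0.471 in DESeq2) without STREP replicate 3.

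Itga3, which pairs with β1 in epithelial laminin receptors, had 1468, 1452 and 1864 normalised counts in Control and 2066, 1454 and 1936 in STREP animals. The ranges overlapped, since STREP replicate 2 was level with the lower Control animals. Itga3 had a log2 fold change of 0.19 ± 0.19 (SE, adjusted p = 0.821 in DESeq2).

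Itgb1, the β chain shared by most matrix receptors, had 9455, 9549 and 7930 normalised counts in Control and 10417, 9301 and 10087 in STREP animals. Its log2 fold change was 0.15 ± 0.13 (SE, adjusted p = 0.792 in DESeq2). Itgb4, the hemidesmosome chain, had 4657, 4339 and 4389 normalised counts in Control and 6150, 4510 and 4413 in STREP animals. A single animal, STREP replicate 1, was clearly above the others, and without it the log2 fold change of 0.17 ± 0.16 (SE, adjusted p = 0.809 in DESeq2) was 0.00081.

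The ratio of an α chain to its β partner was taken in each animal as the log2 ratio of normalised counts, in which library scaling cancels. Because counts depend on transcript length, only its difference between groups is read. Itga6 to Itgb4 was -1.52, -1.60 and -1.53 in Control and -2.27, -1.86 and -2.22 in STREP animals. The Control animals lay close together and the STREP animals were all lower, by a mean of -0.57. Itga6 to Itgb1 differed by -0.56, Itga7 to Itgb1 by -0.67 and Itga5 to Itgb1 by -0.47, again without overlap, while Itga3 to Itgb1 differed by 0.034 with overlap.

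Among laminin chains, Lama1 to Lamc1 differed by -1.05 and Lamb1 to Lamc1 by -0.37, both without overlap, and Lamb2 to Lamc1 by 0.081 with overlap. An exact two-sided permutation test of 3 animals against 3 cannot give a p below 0.1. Of the 17 pairs examined, 6 were lower in STREP animals without overlap, 0 were higher without overlap and 11 overlapped, and several pairs share a chain. The 6 reached that smallest value, and it became 0.283 after Benjamini-Hochberg adjustment over the 17 pairs.

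**Figure D2:**
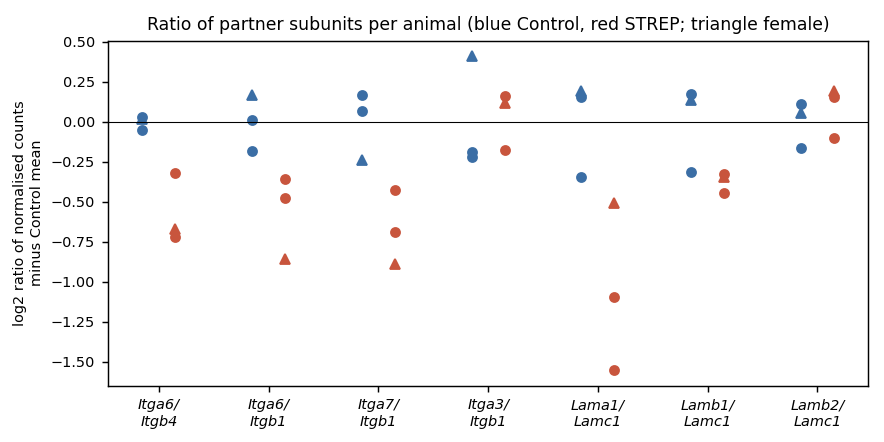
Log2 ratio of the normalised counts of partner chains in each animal, with the Control mean of each pair set to 0, Control in blue, STREP in red and triangles for females. All STREP points lie below the Control points for Itga6/Itgb4, Itga6/Itgb1, Itga7/Itgb1, Lama1/Lamc1 and Lamb1/Lamc1, and the points mix for Itga3/Itgb1 and Lamb2/Lamc1, the other pairs drawn.

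Receptors for other ligands were read in the same way. Itga9, a receptor for tenascin-C and osteopontin, had 101, 95.2 and 92.02 normalised counts in Control and 43.9, 46.4 and 55.4 in STREP animals. The gap between the groups was wide against the spread within them, but the gene was weakly expressed. The log2 fold change was -0.99 ± 0.41 (SE, adjusted p = 0.222 in DESeq2), and it ran from -1.09 to -0.92 when 1 animal was left out.

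Itga8, a receptor for nephronectin known in HCs, had 487, 527 and 643 normalised counts in Control and 851, 731 and 627 in STREP animals. The groups overlapped through their females, since the Control female was above the STREP female. For Itga8 the log2 fold change was 0.42 ± 0.21 (SE, adjusted p = 0.395 in DESeq2). Itga5, the fibronectin receptor chain, had 638 ± 49.5 normalised counts in Control and 509 ± 25.8 in STREP animals, a log2 fold change of -0.32 ± 0.18 (SE, adjusted p = 0.495 in DESeq2).

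The collagen receptor chain Itga10 had 117, 83.3 and 273 normalised counts in Control and 113, 104 and 94.2 in STREP animals. The Control female stood well above the other animals. The log2 fold change was -0.60 ± 0.47 (SE, adjusted p = 0.716 in DESeq2), but 0.046 without that female and 0.11 among males alone. Itga1, another collagen receptor chain, had 421, 571 and 304 normalised counts in Control and 632, 520.4 and 323 in STREP animals. Both females were low, and the log2 fold change of 0.19 ± 0.31 (SE, adjusted p = 0.924 in DESeq2) was -0.0098 without Control replicate 3 and -0.031 without STREP replicate 1.

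The αv group, which activates latent TGF-β, gave values close to each other in the groups. Itgav had 772 ± 39.9 normalised counts in Control and 763 ± 157 in STREP animals. Itgb6, the epithelial partner of αv, had 1203 ± 179.5 and 1293 ± 22.1, and Itgb8 had 552 ± 60.5 and 577 ± 63.9. Itgbl1, an integrin-like secreted protein, had 9225 ± 695 and 9759.5 ± 822. The intervals of these 4 genes stayed within 1.5-fold, whereas that of Itgb3, at 216 ± 37.2 and 202 ± 59.4, did not.

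The integrins of blood and immune cells were low and variable. Itgb2, the leukocyte β chain, had 49.0 ± 15.9 normalised counts in Control and 34.8 ± 16.6 in STREP animals, and its partners Itgal, Itgax and Itgad had between 0 and 120 normalised counts in single animals. Itgal was at 0 in Control replicate 3 and at 101 in Control replicate 1. Itgb7, a β chain of lymphocytes, had 0, 37.4 and 12.9 normalised counts in Control and 90.5, 62.6 and 31.4 in STREP animals, which overlapped. Its log2 fold change of 1.88 ± 1.06 (SE, adjusted p = 0.496 in DESeq2) was the highest of the 35 and among the least certain. Itgae and Itga4 had log2 fold changes of -0.37 ± 0.31 and -0.29 ± 0.45 (SE), and both overlapped between groups.

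The summed count of 13 leukocyte markers ran from 14520 to 15018 in Control and from 14541 to 17713 in STREP animals, and 1 of them, the macrophage receptor Mrc1, was called higher. Their part in these values was not tested. Itga2b, the platelet α chain, had 46.6, 38.3 and 129 normalised counts in Control and 59.9, 24.8 and 68.8 in STREP animals, with a female highest in each group. The summed count of 6 other platelet markers was 8.98 to 21.5 in all animals, and 2 of them, Gp6 and Ppbp, were at 0 in every library. The remaining collagen receptor chains, Itga2 and Itga11, had means of 13.3 ± 9.003 and 26.2 ± 28.9 in Control and 18.3 ± 15.2 and 53.3 ± 37.0 in STREP animals.

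Markers of cells next to the sensory epithelium were read beside these genes. The summed count of 7 markers of dark cells, the potassium-secreting cells beside the sensory patches, was 51737, 46071 and 50556 in Control and 38283, 39062 and 32059 in STREP animals, without overlap. Of the 7 log2 fold changes 6 were negative and 1 positive, and 0 of the markers were called. Only the ion transporter Slc12a2, at -0.55, had an adjusted p under 0.05 (0.0035 in DESeq2), and it missed the fold threshold. STREP replicate 3 was the lowest animal both for this sum and for Lamb3, and Control replicate 1 the highest for both. This ranking was not particular to Lamb3, since Itga5, Itga6 and Itga7 had the same highest and lowest animals. Of the 35 genes, 11 were highest in Control replicate 1 and 12 were lowest in STREP replicate 3.

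The sum of 9 Schwann cell markers was 276348 to 376567 in Control and 148531 to 303918 in STREP animals, with STREP replicate 2 lowest. All 9 had negative log2 fold changes, and the myelin gene Prx was called lower. STREP replicate 2 was also the lowest animal for Lama1 and Lamb1, but STREP replicate 3 was the lowest for Itga6 and Itga7. Sums of endothelial markers (15442 to 17456 in Control, 14882 to 18846 in STREP) and of mural and connective tissue markers (18803 to 25844 and 17891 to 24523) overlapped between groups. Supporting cell markers summed to between 493212 and 616882 in Control animals. In STREP replicates 1 to 3 the sum was 637938, 576863 and 1005520. Replicate 2 fell inside the Control range, and replicate 3 stood far above the other animals. Of the 11 log2 fold changes 9 were positive, 4 genes were higher at an unadjusted p under 0.05 in DESeq2, and 1, Sox10, was called higher. Of 5 melanocyte markers 4 were negative and 0 were called, with 2 lower at an unadjusted p under 0.05 in DESeq2 and a median of -0.96. Their summed count did not fall, at 27264.1 to 28267.5 in Control and 27915 to 39978 in STREP animals, with overlap. Of 8 neuron markers 1, Tubb3, was called higher, while 3 had negative log2 fold changes. Their summed count did not rise, at 4844 to 5140 in Control and 4598 to 5097 in STREP animals, with overlap. The part of the other cell types in the integrin and laminin values was not tested.

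**Figure D3:**
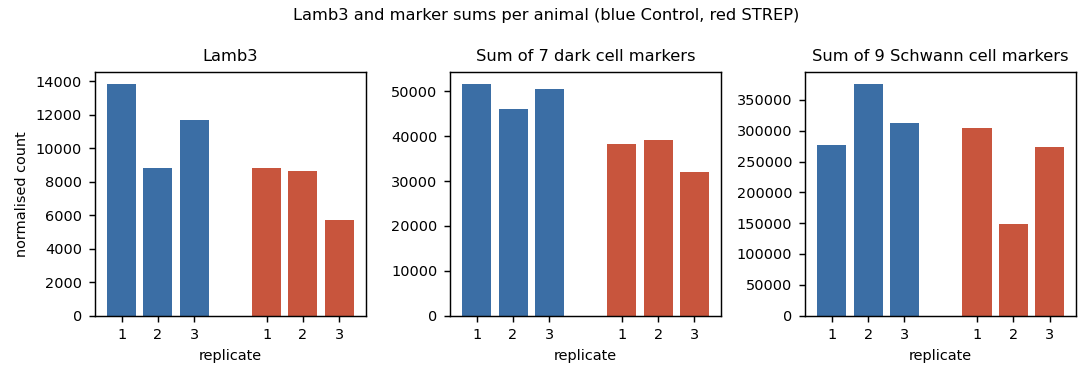
Normalised counts in each animal of Lamb3, of the sum of 7 dark cell markers and of the sum of 9 Schwann cell markers, Control in blue and STREP in red. Lamb3 and the dark cell sum are both highest in Control replicate 1 and lowest in STREP replicate 3, while the Schwann cell sum is lowest in STREP replicate 2. Itga5, Itga6 and Itga7, not drawn here, had the same highest and lowest animals as Lamb3.

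Values were also compared between females and males, but a difference between the sexes was not tested on its own. Both females lay below all 4 males for 5 of the 35 genes, Itga1, Itga2, Itgav, Lama2 and Lama4, where 6.76% of all tested genes did so. They lay above all males for 1 gene, Itga2b, where 7.48% of all tested genes did so. For Itga1 the mean was 313 normalised counts in females and 536 in males. The effect of streptomycin was compared between the sexes with an interaction term, for which DESeq2 gave an adjusted p for 29 of the 35 genes. None of the 29 was under 0.05, the smallest being 0.876 for Lama2, where 0.259% of all genes were, and 3 of the 35 had an unadjusted p under 0.05 (Itga11, Itgal and Lama2). With 1 female in each group, this test rests on single animals.

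STREP replicate 3, a female, was the lowest animal for 12 of the 35 genes and the highest for 1. The 35 genes took 0.126% of the raw counts of that library and between 0.168% and 0.209% of the other libraries. After normalisation the difference was smaller for the integrins. Their sum was 31994 in that library, within the Control range of 31853 to 33620. The laminin sum was 31385.5, below the Control range of 36894 to 43970.

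Among the other proteins of the basement membrane, the change that passed the test was in Ntn4. Netrin-4, its product, binds laminin γ chains and opens laminin networks. Ntn4 (ENSRNOG00000005573) had 131, 94.4 and 175 normalised counts in Control and 485, 554 and 444 in STREP animals. Each STREP animal was far above each Control animal. It rose by a log2 fold change of 1.89 ± 0.28 (SE, adjusted p = 8.42e-09 in DESeq2), and it was called in 17 of 17 alternatives, including edgeR (adjusted p = 0.007).

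Of the 24 basement membrane partners listed, 23 were in the table and tested, 1 was called higher and 0 lower, with a median log2 fold change of 0.031. At an unadjusted p under 0.05, 5 were higher and 1 lower with DESeq2, and edgeR with a count filter gave 3 in all. The second smallest adjusted p was that of Col4a6, a collagen IV chain, which had 0 counts in all Control animals and in STREP replicate 1 and 29.1 and 10.5 normalised counts in STREP replicates 2 and 3 (adjusted p = 0.103 in DESeq2). Col4a6 was called when STREP replicate 1 was left out.

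Of the 24 other integrin ligands, 23 were tested and 1 was called. Tnc, which encodes tenascin-C, a ligand of α9 and αv integrins, had 5298, 5232 and 5259.8 normalised counts in Control and 3257, 3423 and 3732 in STREP animals. The Control animals were nearly equal and all STREP animals were lower. Tnc fell by 0.60 ± 0.12 as a log2 fold change (SE, adjusted p = 0.0001 in DESeq2), near the 1.5-fold limit, and was called in 14 of 17 alternatives. The exceptions were library totals as scaling factors (adjusted p = 0.0556 in DESeq2), the fold threshold placed inside the test, and the fit without STREP replicate 1.

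Nov, the matricellular protein CCN3, had 8281, 5350.5 and 6239 normalised counts in Control and 4326, 4344 and 4685 in STREP animals. Its log2 fold change of -0.57 ± 0.18 (SE, adjusted p = 0.0332 in DESeq2) missed the fold threshold. Nov was called without Control replicate 2 and without STREP replicate 3. The median of the ligands was 0.019.

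The proteins that link integrins to actin and to signalling gave 0 calls among 33 tested. With DESeq2, 2 were lower and 2 higher at an unadjusted p under 0.05, and edgeR called 0 and gave 3 at that level. Zyx, the adhesion scaffold zyxin, had 1395 ± 137 normalised counts in Control and 1018 ± 82.7 in STREP animals, a log2 fold change of -0.45 ± 0.16 (SE, adjusted p = 0.105 in DESeq2). Pxn, which encodes paxillin, had 4543 ± 110.05 and 5874 ± 951, a log2 fold change of 0.37 ± 0.15 (SE, adjusted p = 0.203 in DESeq2). The list median was -0.013. Lims2, named here after its value was seen, was called when STREP replicate 1 was left out.

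The laminin receptors other than integrins also gave 0 calls among 10 tested, 0 at an unadjusted p under 0.05 with DESeq2, and 0 at either level with edgeR. Dag1, which encodes dystroglycan, had 13839.8 ± 1845 normalised counts in Control and 16619.9 ± 2719 in STREP animals, a log2 fold change of 0.26 ± 0.16 (SE, adjusted p = 0.571 in DESeq2). Sdc3, a syndecan, had a log2 fold change of 0.29 ± 0.17 (SE, adjusted p = 0.531 in DESeq2). The list had 2 negative values of 10, and its median of 0.18 was the highest of the 4 partner lists.

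**Figure D4:**
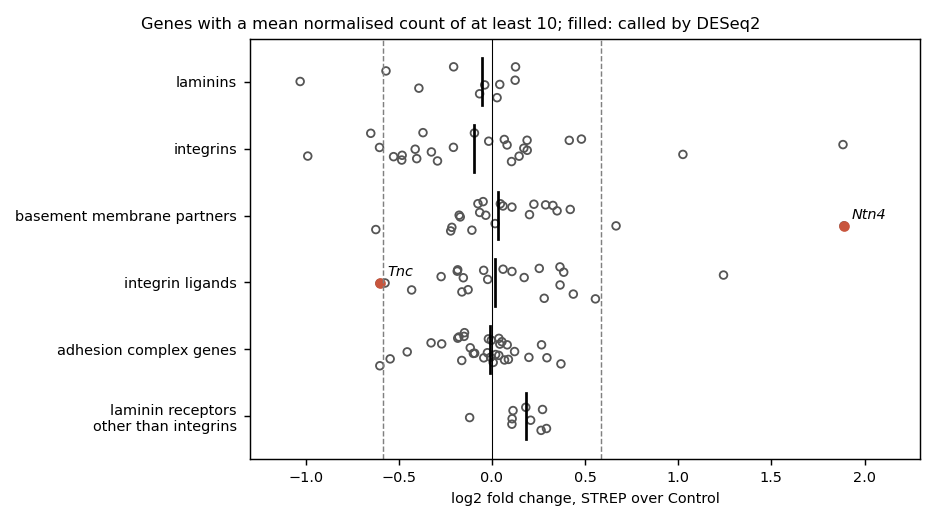
Log2 fold change (STREP over Control) of the laminins, the integrins and 4 lists of partner genes, for genes averaging at least 10 normalised counts, with a black bar at each median and dashed lines at a 1.5-fold change. Filled points are the genes called by DESeq2, Ntn4 at 1.89 and Tnc at -0.60, and no integrin or laminin is filled.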

How the data were processed

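The authors aligned the reads with STAR 2.5.3a and deposited expected counts per gene from RSEM 1.3.0 (versions from the submitters' processing notes). The table held 0 values that were not whole numbers. Groups came from the sample labels, which place all libraries in 1 batch. Animals were numbered within a group in order of deposition, and the numbers pair nothing.

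DESeq2 1.42.0 under R 4.3.3 was fitted to all 32883 genes (group alone in the model, size factors by median of ratios, Wald test, Benjamini-Hochberg adjustment, independent filtering at 0.05). Dividing each count by the size factor of its library gave the normalised counts. Alternatives included quasi-likelihood tests in edgeR 4.0.16, other scalings, filters and thresholds, sex as covariate, males alone and leaving out each animal. The script was tested on simulated data. P-values of DESeq2 and edgeR set the difference between groups of 3 animals against a spread estimated partly from all genes.

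Genes described per animal were those called, those with an adjusted p under 0.1, those with an unadjusted p under 0.05 and no overlap, and the 5 highest and 5 lowest fold changes at a mean of at least 100. In each partner list they were the called genes or, with fewer than 2, the 2 smallest adjusted p-values. Itgb7 and Itga2b met none of these rules but were also shown per animal. The genes, lists, pairs and tests were chosen with earlier results of these data known. Itgb5 is typed as a processed transcript in the table and fell outside the rule (log2 fold change -0.41 ± 0.18, SE, DESeq2 adjusted p = 0.245). Lama3, Itgam and Hspg2 were not analysed here, and the values of 1 laminin gene are not reported here, though it stays in the counts and medians. Expected counts divide reads among similar genes, and counts were not compared between genes because no transcript lengths were used here.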

Additional observations from a re-analysis of the deposited data

How the results depend on the processing

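The 12 integrins and laminins that met the rules for description per animal were compared across settings. With a changed setting, 130 comparisons kept direction and call. Of the others, 1 gained a call (Lama1 at -1.03, under an adjusted p of 0.1) and 1 changed sign (Itga10 at 0.11, males alone). With 1 animal left out, 66 kept both, 3 gained a call and 3 changed sign. Itga10 then ranged from -0.91 to 0.046 and Itga1 from -0.031 to 0.44. None of the 12 was called in the main fit, so no call could be lost. Settings that changed only a threshold or the independent filtering reused the same fold changes, so no direction could change in them.

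Under an adjusted p of 0.1, 1 of the 35 genes, a laminin, was called, where 3.71% of all tested genes were. Leaving out 1 animal gave 0 to 1 called lower among the 35, 0 to 1 among integrins and 0 to 1 among laminins. Those fits called from 2.58% (without Control replicate 2) to 3.35% (without STREP replicate 2) of all tested genes. They also called 1 to 2 basement membrane partners, 0 to 1 adhesion complex genes and 0 to 3 integrin ligands. Called ligands were 0 with library totals, 0 with the fold threshold inside the test, 2 among males alone (Tnc and Spp1) and 2 without a fold threshold (Tnc and Nov). The integrin median was 0.097 among males alone and ranged from -0.36 to 0.11 with 1 animal left out, and the laminin median from -0.22 to 0.026. The cause of these changes was not tested.

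For the 35 genes the 95% interval, not adjusted over genes, reached a median of 0.44 to either side on the log2 scale. It is no limit of detection, since a call needed an adjusted p under 0.05 and a fold change above 1.5. Lama1 at -1.03 and Itga9 at -0.99 were not called, so changes well above 0.44 could also be missed with 3 animals per group. Levels per coding length were planned and not run, since no length table was used here. No paired analysis was possible because the labels give no replicate numbers. The titles of STREP replicates 1 and 2 begin with the same identifier, whose meaning the labels do not give.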
